A study of Arabidopsis thaliana with 12 samples.

Results

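The ceh1 mutation of Arabidopsis thaliana was examined in plants with a working salicylic acid gene ICS1, by comparing ceh1 with its parent Col-0 across all genes whose normalized counts averaged 10 or more in the study's 12 libraries. This comparison uses 6 of the 12 libraries, 3 of ceh1 and 3 of Col-0, and 18289 of 33602 genes passed the filter. Both genotypes were whole rosettes of soil-grown plants aged 3 weeks, and polyadenylated RNA was sequenced. Col-0 is the wild type, labelled the parent, and ceh1 carries a mutation in HDS. No agent was applied, and the other 6 libraries (eds16, which lacks a working ICS1, and ceh1/eds16) entered the gene filter, the estimate of the spread, the measure of transcript length and the comparison that ends the results. The series' design text calls the 3 libraries of a genotype biological replicates without saying how many plants each held. The p-values of single genes weigh a difference against the spread between these samples within genotypes, estimated over all 12 libraries.

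HDS is an enzyme of the methylerythritol phosphate pathway, by which plastids make the building blocks of carotenoids, chlorophyll side chains and other isoprenoids. It consumes methyl-erythritol cyclodiphosphate, and plants with weak HDS accumulate this intermediate, which is known as a signal from plastid to nucleus in stress. The ceh1 mutant was named for constitutive expression of a hydroperoxide lyase reporter and is known to hold high salicylic acid, the hormone that ICS1 serves and that drives defence against biotrophic pathogens.

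The labels were checked first. HDS (chromosome 5, 24358885 to 24363485, TAIR10.1) read 3840.2, 3874 and 3582 normalized counts in the Col-0 libraries and 1565, 1362 and 1840.2 in ceh1. Every ceh1 library lay below every Col-0 library, a log2 difference of -1.25 ± 0.13 (SE, limma, adjusted p = 5.83e-07), but such a mutation need not alter the amount of transcript, so this does not test the label. ICS1 (chromosome 1, 28070295 to 28074177) read 235, 277 and 224 in Col-0 and 631, 677 and 689.8 in ceh1, so the gene was transcribed in both. HPL1 (chromosome 4, 8835368 to 8838676), the hydroperoxide lyase gene, read 79.7, 66 and 52.8 in Col-0 and 69.3, 53 and 60.8 in ceh1. The HPL1 groups overlapped, with a log2 difference of -0.10 ± 0.18 (adjusted p = 0.655).

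The libraries held 4.99 to 7.33 M reads in genes for Col-0 and 7.4 to 18.08 M for ceh1, so genes with few reads have wider errors in Col-0. All 13 markers of leaf mesophyll were detected in both genotypes, as the tissue label has it, and their summed level was 478004 to 556394 in Col-0 and 214167 to 251159 in ceh1. All 13 were called lower in ceh1. In whole rosettes, fewer cells of a type and less RNA per cell cannot be told apart. The 15 root markers summed to 434 to 539 in Col-0 and 1004 to 1243 in ceh1, mostly through PYK10, and the root hair genes RHD6 and EXPA7 and the root tip genes PLT1 and PLT2 had no read in either genotype. The 19 flower and pollen markers summed to 435 to 549.5 in Col-0 and 153 to 244 in ceh1, with the pollen genes DUO1 and MGH3 at 0 in both. The anther genes A7 and MS2 had means of 11.3 and 17 in Col-0 and 0.275 and 1.38 in ceh1, and the pollen genes VGD1 and PPME1 had 5.95 and 4.16 in Col-0 and no read in ceh1. All 9 markers of this list that passed the filter were called lower, beside 25% of all genes tested. A mean of at least 10 was reached by 11 markers in Col-0 and 5 in ceh1. Some of the 9 thus passed the filter only through groups where they are high, which favours lower calls in ceh1. The 15 seed storage markers summed to 16.7 to 19.6 and 10.6 to 16.9, with the storage protein genes SESA1, SESA4 and CRU2 at 0. The part of these flower and root transcripts in the results below was not tested.

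A large part of the transcriptome tested differed between ceh1 and Col-0. At an adjusted p under 0.05 (limma on log2(normalized count + 1), Benjamini-Hochberg over 18289 genes), 9183 genes were called, 50.2% of those tested. Of these, 4617 (25.2% of the genes tested) were higher in ceh1 and 4566 (25%) were lower. Most differences were small: the median size among called genes was 0.79 on the log2 scale, beside a median standard deviation between libraries of 0.17 in Col-0 and 0.15 in ceh1. At least 2-fold higher were 1821 genes (9.96%), and at least 2-fold lower were 1289 (7.05%).

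The directions were uneven in size. At least 4-fold changes numbered 672 higher and 168 lower, at least 8-fold changes 284 and 35, and at least 16-fold changes 84 and 6. The plot of fold change against level shows the same spread, with the high points in ceh1 at low to middle levels. All fold changes are on the scale of log2(normalized count + 1), where the added 1 shrinks the change of weakly read genes. Not every such gene had a smaller change here than by other fits. BGLU31 stood at 5.36 here and 6.83 by DESeq2 on recovered reads, but ALPHA-DOX1 at 4.89 and 3.71.

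**Figure D1:**
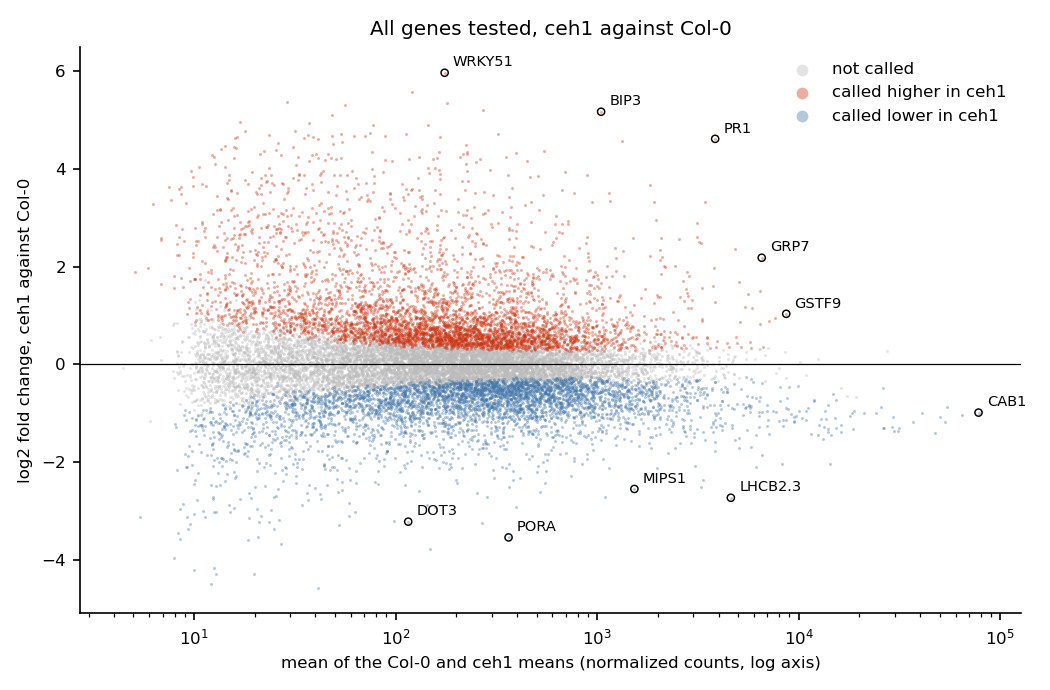
Each point is 1 of the 18289 genes tested, placed by its mean level over both genotypes (normalized counts, log axis) and its log2 fold change in ceh1 against Col-0, coloured by call. Genes reach 5.96 (WRKY51) above 0 and mostly stay within a smaller range below it, and the most abundant genes, such as CAB1, lie below 0.

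The most abundant genes fell most often. Of 294 genes with a mean of at least 3000 normalized counts over both genotypes, 177 were called lower (60.2%) and 40 higher (13.6%), with a median log2 difference of -0.58. Of the 4003 genes between 30 and 100, 19.1% were lower and 27.2% higher, with a median of 0.09. The reads were spread over more genes in ceh1: the genes that together held 50% of all normalized counts numbered 993, 898 and 961 in the Col-0 libraries and 1487, 1497 and 1596 in ceh1. The summed normalized counts were 8.71, 8.90 and 8.55 M in Col-0 and 7.46, 7.41 and 7.38 M in ceh1. When all libraries were instead scaled to the same total, the median of all genes moved from 0.01 to 0.24 on the log2 scale, and 6865 genes were called higher and 2678 lower. That is 71.9% higher among the called genes, beside 50.3% in the main scaling, so differences below about this shift depend on the scaling.

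Fold change went with the length of the transcript. Transcript length was the summed exon length of the longest transcript in the TAIR10.1 annotation, known for 18049 of the genes tested. Among 2173 genes under 1000 bases 40% were called higher and 9.62% lower, with a median log2 difference of 0.43. Among 763 genes of 4000 bases or more 4.46% were higher and 66.2% lower, with a median of -0.61. Across genes, which are not independent replicates, Spearman's rho between length and log2 fold change was -0.38, and it was -0.09 for the summed intron length. In single libraries, the median of the 2210 genes of 3000 bases or more minus that of the 2173 short genes, each relative to its mean over the 12 libraries, was 0.67, 0.45 and 0.28 (log2) in Col-0. It was -0.53, -0.68 and -0.03 in ceh1. All Col-0 libraries lay above all ceh1 libraries, and ceh1 replicate 3 lay nearest to Col-0. In eds16 the same measure was 0.10, 0.03 and 0.07, and in ceh1/eds16 it was 0.04, 0.35 and -0.87.

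**Figure D2:**
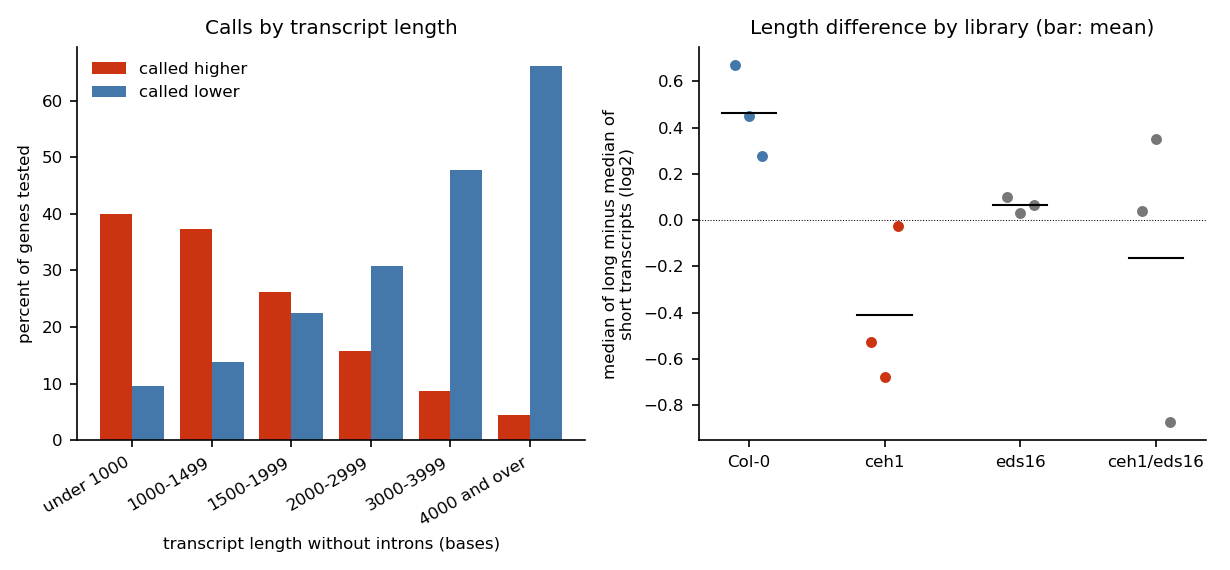
Left, the percent of genes called higher or lower in ceh1 against Col-0 in classes of transcript length without introns (bases). Right, for each library (points, bar at the mean of 3), the median of transcripts of at least 3000 bases minus that of transcripts under 1000 bases (log2), from 0.28 to 0.67 in Col-0 and from -0.68 to -0.03 in ceh1.

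Since gene lists differ in transcript length, every count of list or family members below was repeated after removing the trend on length within each library, an alternative added after seeing the data. It called 4548 genes higher and 4166 lower, of which 3712 and 3426 were also called in that direction with the trend left in. It would also remove a real change that goes with length, and the cause of the trend was not tested. Of 83 lists and families with at least 10 tested members, 36 had more members called higher, 44 had more called lower and 3 had as many of each. The majority changed side in 6 of the 83 without the length trend, and in 12 of the 83 with equal library totals.

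**Figure D3:**
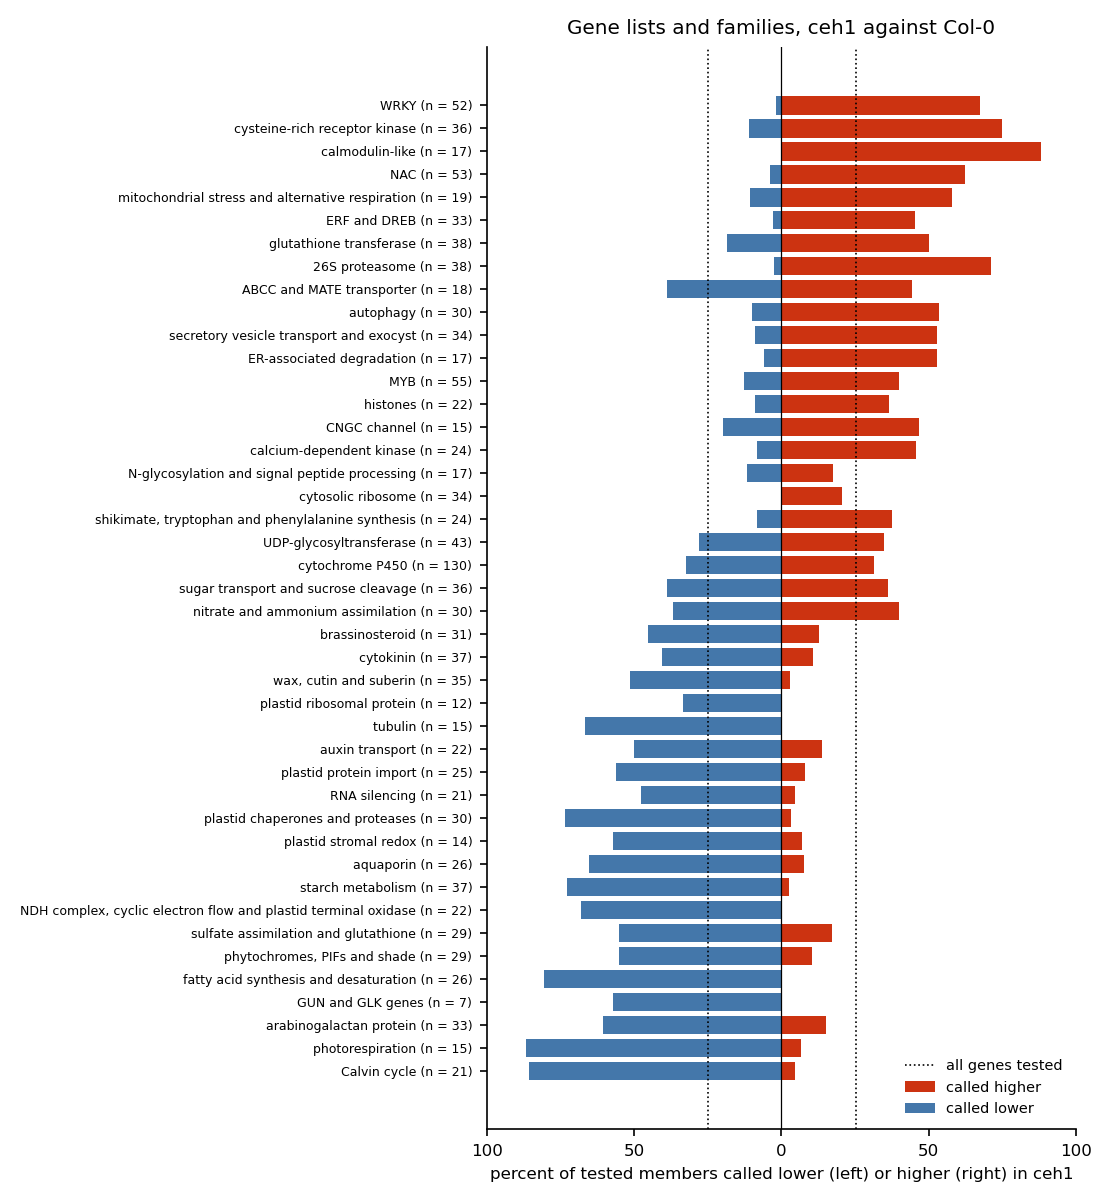
Percent of the tested members of each gene list or family called higher (right) or lower (left) in ceh1, ordered by median log2 fold change, with the number tested in brackets and dotted lines at the 25.2% and 25% of all genes tested. The WRKY, cysteine-rich receptor kinase, calmodulin-like and NAC families lie at the top, and the Calvin cycle and photorespiration at the bottom.

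The largest losses in read number were genes of light capture and carbon fixation. All 10 leading losses encode chlorophyll-binding antenna proteins or Rubisco and its activase. CAB1 (chromosome 1, 10477885 to 10479114), an antenna protein of photosystem II, read 95053, 116834 and 99032 normalized counts in Col-0 and 58885, 50646 and 47608 in ceh1. RBCS1A (chromosome 1, 25048158 to 25049667), a Rubisco small subunit, read 84256, 91169.6 and 85500.2 in Col-0 and 44335, 46192 and 37788 in ceh1. Both fell about as much, by 0.98 ± 0.20 (SE, limma, adjusted p = 0.000592) and 1.03 ± 0.17 (adjusted p = 0.000121) on the log2 scale. LHCA4 and LHCA3, antenna proteins of photosystem I, went from 70451 ± 7905 to 38502 ± 3214 and from 51059 ± 4248 to 22543 ± 1066 (mean ± SD, n = 3 libraries, as for all such values below). LHCB5, a minor antenna protein, went from 73648 ± 8302 to 32253 ± 779. The others were RCA, LHB1B2, RBCS3B, LHCB1.1 and CAB3, which fell by 0.99 to 1.41. The LHCB1 genes (CAB1, CAB3, LHCB1.1, LHB1B2) and the Rubisco small subunit genes are near-identical copies between which the counting may have split reads, so values of single copies are uncertain.

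The share of all normalized counts shows the size of these losses. The 13 leaf mesophyll markers held 5.49%, 6.25% and 5.8% of the counts in the Col-0 libraries and 3.37%, 3.19% and 2.9% in ceh1. The 21 Calvin cycle genes held 4.16% ± 0.136 in Col-0 and 2.23% ± 0.119 in ceh1, and the 15 photorespiration genes 1.05% ± 0.0292 in Col-0 and 0.603% ± 0.0128 in ceh1. Aquaporins, the membrane channels for water, held 0.766% ± 0.0069 in Col-0 and 0.493% ± 0.00316 in ceh1. On the other side, the glutathione transferases held 0.262% ± 0.0158 in Col-0 and 0.56% ± 0.0259 in ceh1, and 39 proteasome genes 0.298% ± 0.0128 in Col-0 and 0.464% ± 0.00934 in ceh1. The WRKY factors went from 0.0709% to 0.246% of the counts. In each of these lists the libraries of the 2 genotypes did not overlap, and the exact permutation test over 6 libraries gave a two-sided p of 0.1, the smallest it allows.

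The largest gains in read number were smaller in number of reads and came from several functions. GRP7 (chromosome 2, 9265084 to 9266557), a glycine-rich RNA-binding protein under control of the clock, read 2208, 2596 and 2299.8 in Col-0 and 11252, 9746 and 11216 in ceh1, a rise of 2.18 ± 0.24 (SE, log2, adjusted p = 1.46e-06). TCH3 (chromosome 2, 17137037 to 17139700), a calmodulin-like protein induced by touch, read 1255, 1961 and 1504 in Col-0 and 7949, 6961 and 9228 in ceh1. GSTF9, a glutathione transferase, read 5986, 5092 and 6006 in Col-0 and 11754, 12226 and 10964 in ceh1. In all 3 genes every ceh1 library lay above every Col-0 library, which the rule that chose them required. SHD, the HSP90 chaperone of the endoplasmic reticulum, went from 3029 ± 246 to 8162 ± 174, and GRP-3, a glycine-rich cell wall protein, from 2389 ± 152 to 7696 ± 337. LURP1, a gene induced late by an oomycete pathogen, went from 749 ± 120.4 to 5494 ± 334. DMR6, an oxygenase that hydroxylates salicylic acid, went from 1004 ± 178 to 5569 ± 85.2. The remaining leading gains were PR1, BGL2 (the glucanase PR2) and CCL.

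By fold change, most of the leading genes were close to silent in Col-0. CCOAMT (chromosome 1, 25487682 to 25489312), a caffeoyl-CoA O-methyltransferase gene, read 3.57, 3.57 and 5.15 normalized counts in Col-0 and 236, 236 and 239 in ceh1, a rise of 5.56 ± 0.37 (SE, log2, adjusted p = 5.06e-09). PMZ (chromosome 3, 10520443 to 10521796), a stress-associated zinc finger protein, read 5.94, 7.14 and 10.3 in Col-0 and 331, 374 and 345 in ceh1. PXMT1 (chromosome 1, 24873206 to 24874766), a methyltransferase, read 2.38, 5.35 and 6.44 in Col-0 and 142, 173 and 119.6 in ceh1. The ceh1 libraries of these genes lay far above the Col-0 libraries, and the rule that chose them required no overlap. All 3 were also called under each alternative tried. LHT7, of an amino acid transporter family, went from 4.43 ± 2.4 to 150.3 ± 12.6, and 603 bases of it overlap a gene on the opposite strand that had few reads in both genotypes. BPS3 read 3.57, 3.57 and 0 in Col-0 and 96.9, 91.4 and 139.6 in ceh1, and its log2 difference of 5.30 was 4.57 without Col-0 replicate 3.

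ALPHA-DOX1, an alpha-dioxygenase that oxidizes fatty acids, read 3.57, 1.78 and 55.4 in Col-0 and 239, 227 and 338 in ceh1, so that Col-0 replicate 3 stood apart. Its log2 difference of 4.89 was 6.21 without that library, 4.04 without Col-0 replicate 2 and 3.71 by DESeq2 on recovered reads. ELI3-2, related to cinnamyl alcohol dehydrogenases, read 2.38, 8.92 and 15.5 in Col-0 and 198, 180.2 and 271 in ceh1, a log2 difference of 4.71, or 4.07 without Col-0 replicate 1. The other leading genes by fold were WRKY51, WRKY38 and the chaperone gene BIP3, which rose by 5.96, 5.21 and 5.17. With a mean of at most 2 in Col-0 and at least 50 in ceh1, 4 called genes met the rule for a switch. WRKY75 (chromosome 5, 4149738 to 4151201), a transcription factor of defence and phosphate supply, read 1.19, 1.78 and 2.58 in Col-0 and 98.6, 97.4 and 87.7 in ceh1. BGLU31, of a beta-glucosidase family, read 0, 1.78 and 0 in Col-0 and 59, 49 and 63.8 in ceh1. The other two, AT1G13520 and AT5G35935, have no symbol in the annotation and were named after their values were seen. With a pseudocount of 5 the log2 differences of WRKY75 and BGLU31 were 3.86 and 3.48 rather than 5.09 and 5.36.

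**Figure D4:**
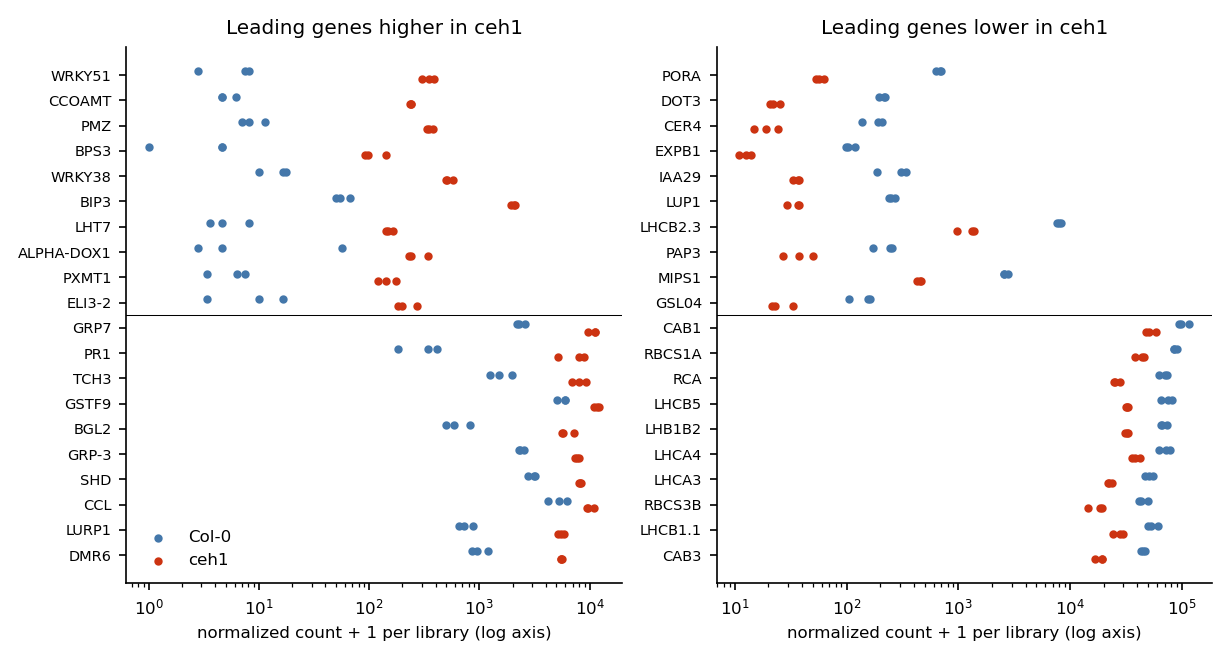
Normalized count + 1 (log axis) of the leading genes in each Col-0 and ceh1 library, with the 10 largest fold changes above the line and the 10 largest differences in count below it. The genes were chosen for groups that do not overlap, so the separation of the points is no result. ALPHA-DOX1 has 1 Col-0 library, at 55.4, away from the other two.

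Promoters of 5 of these rising genes and of the falling gene PORA are shown to let the motifs be seen in place. They are examples and do not show how often a motif occurs among the leading genes. Each is the 250 bases before the annotated gene start, 5′ to 3′ on the gene's strand, read from RefSeq's TAIR10.1 genome. Capitals mark a match on either strand to any of 11 motifs, which are spelled out with the motif counts.
PMZ (chr3:10520193-10520442, plus strand): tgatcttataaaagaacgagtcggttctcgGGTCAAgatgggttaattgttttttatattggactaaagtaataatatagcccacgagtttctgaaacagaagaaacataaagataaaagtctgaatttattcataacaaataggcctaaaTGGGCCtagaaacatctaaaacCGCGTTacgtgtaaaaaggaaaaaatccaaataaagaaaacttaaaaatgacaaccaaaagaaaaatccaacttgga
CCOAMT (chr1:25487432-25487681, plus strand): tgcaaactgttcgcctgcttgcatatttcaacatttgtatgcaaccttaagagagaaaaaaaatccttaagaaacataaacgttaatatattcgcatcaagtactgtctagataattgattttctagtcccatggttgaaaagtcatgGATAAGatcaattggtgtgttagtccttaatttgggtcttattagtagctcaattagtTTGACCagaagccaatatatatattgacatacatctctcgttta
PXMT1 (chr1:24874767-24875016, minus strand): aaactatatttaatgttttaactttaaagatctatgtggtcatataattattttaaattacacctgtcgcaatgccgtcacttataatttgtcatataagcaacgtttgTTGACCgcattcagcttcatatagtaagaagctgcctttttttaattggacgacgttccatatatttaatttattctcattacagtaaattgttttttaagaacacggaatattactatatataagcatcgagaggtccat
WRKY75 (chr5:4151202-4151451, minus strand): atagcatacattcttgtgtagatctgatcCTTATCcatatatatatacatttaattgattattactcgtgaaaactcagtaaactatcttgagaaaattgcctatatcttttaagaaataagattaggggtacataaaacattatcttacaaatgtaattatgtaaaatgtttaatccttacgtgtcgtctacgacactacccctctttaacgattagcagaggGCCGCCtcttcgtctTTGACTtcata
SHD (chr4:12556059-12556308, minus strand): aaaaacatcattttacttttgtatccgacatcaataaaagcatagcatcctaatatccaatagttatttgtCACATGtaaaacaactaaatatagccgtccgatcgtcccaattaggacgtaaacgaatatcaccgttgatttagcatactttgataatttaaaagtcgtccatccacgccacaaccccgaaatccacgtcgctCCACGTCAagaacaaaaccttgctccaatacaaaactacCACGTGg
PORA (chr5:21992815-21993064, minus strand): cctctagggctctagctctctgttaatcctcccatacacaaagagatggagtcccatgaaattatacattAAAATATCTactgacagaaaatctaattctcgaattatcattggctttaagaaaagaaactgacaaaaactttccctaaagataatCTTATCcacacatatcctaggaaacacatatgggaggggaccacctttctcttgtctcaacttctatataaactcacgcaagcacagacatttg
In PMZ a W-box begins 220 bases before the start and the rapid stress response element RSRE 77 bases before it, with a site II motif between them at 99. CCOAMT has an I-box at 102 and a W-box at 44, and PXMT1 a W-box at 141. WRKY75 has an I-box at 221, a GCC-box at 26 and a W-box at 11. SHD has a PIF box at 179, a UPRE core at 46 with a TGA box inside it, and a G-box at 7. PORA has an evening element at 180 and an I-box at 94. These matches are a description of the letters and not of binding.

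The 10 largest falls by fold included genes of pigment synthesis, light capture, wax, cell wall and hormone response. PORA (chromosome 5, 21990864 to 21992814), a light-dependent protochlorophyllide reductase, read 698, 682 and 629.7 in Col-0 and 62.3, 55.6 and 52.8 in ceh1, a fall by 3.54 ± 0.17 (SE, log2, adjusted p = 1.71e-10). MIPS1 (chromosome 4, 18469255 to 18472048), the inositol phosphate synthase whose loss is known to cause lesions, read 2758, 2539 and 2542 in Col-0 and 428, 450.5 and 462 in ceh1, a fall by 2.55 ± 0.11 (adjusted p = 6.48e-11). LHCB2.3 (chromosome 3, 10255906 to 10257489), an antenna protein of photosystem II, read 7938, 8357 and 7674 in Col-0 and 1382, 1313 and 969 in ceh1. In these 3 genes the ceh1 libraries lay close together and well below Col-0, and the rule that chose them required no overlap. LHCB2.3 shares 595 bases with AT3G27700 on the opposite strand, and the sources used here do not say whether counting used strand. LUP1, a lupeol synthase of triterpene synthesis, went from 252 ± 16.4 to 33.6 ± 4.5, and PAP3, a purple acid phosphatase, from 223 ± 44.5 to 37.3 ± 11.8. EXPB1, a beta-expansin that loosens cell walls, read 102, 98.1 and 117 in Col-0 and 11.5, 9.94 and 13 in ceh1. GSL04, of the callose synthase family, fell by 2.44 ± 0.22, or by 1.66 without the length trend, its transcript being long. DOT3, CER4 and IAA29 completed the leading falls, at -3.21, -3.21 and -2.92.

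The WRKY, NAC, ERF and DREB, and MYB families were among the transcription factor families with more members higher than lower, while some others had more lower. Over all genes tested 25.2% were higher and 25% lower. Of 7 TGA factors 5 rose, of 14 heat shock factors 5 and of 5 ZAT factors 4, with 0 lower in each. Of 28 bZIP factors 8 rose (28.6%, near the share of all genes) and 5 fell. Of 22 GATA factors 4 rose (18.2%, below the share of all genes) and 3 fell. The GATA counts were 5 and 5 without the length trend and 10 and 1 with equal library totals. Of 52 WRKY factors tested 35 rose and 1, WRKY19, fell, with a family median of 1.73 on the log2 scale beside 0.01 for all genes, and 30 rose at least 2-fold. WRKY40, a repressor of basal defence, rose by 4.25 ± 0.24, beside WRKY75, WRKY38 and WRKY51. Of 53 NAC factors 33 rose and 2 fell (median 0.85). NAC047 read 27.3, 28.5 and 12.9 in Col-0 and 223, 244 and 270.1 in ceh1. ANAC087, a gene of developmental cell death, went from 9.31 ± 1.5 to 146 ± 9.71 and NAC090 from 12.3 ± 3.4 to 133 ± 7.29. Of 33 ERF and DREB factors 15 rose and 1, DREB1A, fell (median 0.60), or 23 rose with equal library totals. ERF-1 and ERF11 went from 19.1 ± 2.0 to 241 ± 56.9 and from 4.92 ± 1.44 to 73.1 ± 36.1. Of 55 MYB factors 22 rose and 7 fell (median 0.33). MYB15, which controls lignin in defence, went from 5.85 ± 2.7 to 171 ± 63.4 and MYB51, of indole glucosinolate synthesis, from 139 ± 12.2 to 614 ± 110.3, while MYB88, of stomatal divisions, fell from 136 ± 35.9 to 56.9 ± 14.1. When 1 library was left out, WRKY19 was called only without ceh1 replicate 3, and it was not called without the length trend or with equal library totals. DREB1A was not called without Col-0 or ceh1 replicate 2, and 1 NAC factor in place of 2 was lower when Col-0 replicate 1, Col-0 replicate 2 or ceh1 replicate 2 was left out. On the other side, 12 of 25 Aux/IAA repressors of auxin response fell and 3 rose, 10 of 24 BBX factors fell and 5 rose, 9 of 20 TCP factors fell and 5 rose and 7 of 15 ARF factors fell. The bHLH, homeodomain, SPL and DOF families also had more members lower than higher. In bHLH and homeodomain factors, however, the lower members were 4 of 14 (28.6%) and 7 of 29 (24.1%), near the 25% of all genes. With equal library totals homeodomain factors had 6 higher and 2 lower, and bHLH factors 3 of each. The GRAS family was even, with 6 of 21 in each direction.

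Promoter motifs were counted from 250 bases before to 50 bases after the gene start, on both strands, in 18275 promoters. The W-box (TTGACC or TTGACT), the site of WRKY factors, was in 52.1% of 672 promoters of genes at least 4-fold higher in ceh1. It was in 41.1% of 1149 promoters of genes 2-fold to 4-fold higher, 31.1% of 9098 not called, 27% of 1120 that were 2-fold to 4-fold lower and 18.5% of 168 at least 4-fold lower. The share over all promoters was 32.6%. At least 2 W-boxes were in 20.4% of promoters at least 4-fold higher and 7.75% of all. The RSRE (CGCGTT) was in 8.78% of those at least 4-fold higher, 1.79% of those at least 4-fold lower and 3.82% of all. The CAMTA box (CGCGTG), which differs from it in the last letter, was in 5.51%, 1.19% and 3.63%.

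The other motifs differed in the class of genes in which they were most frequent. The PIF box (CACATG) was in 19.2% of promoters of genes 2-fold to 4-fold lower, 13.7% of those at least 4-fold higher and 12.6% of all. Site II (TGGGCC), known from genes of housekeeping and protein synthesis, was in 21.8% of promoters of genes not called, 5.65% of those at least 4-fold higher and 5.95% of those at least 4-fold lower. For genes at least 4-fold higher, at least 4-fold lower and all, the TGA box (TGACGT) was in 14.4%, 8.93% and 9.78%. The UPRE core (TGACGTGG), which contains a TGA box, was in 1.79% (12 promoters), 0.595% (1 promoter) and 1.95%. It was in 2.96% of promoters of genes 2-fold to 4-fold higher and 2.05% of those 2-fold to 4-fold lower. For the same classes as the TGA box, the G-box (CACGTG) was in 10.3%, 7.14% and 8.86%, and the I-box (GATAAG) in 15.6%, 14.3% and 14.9%. The GCC-box (GCCGCC) was in 3.12%, 0.595% and 2.7%, and the evening element (AAAATATCT) in 4.91%, 3.57% and 3.16%. Over all called genes, with no fold minimum, site II was in 18.9% of those higher and 16% of those lower, the RSRE in 5.01% and 3.02%, and the W-box in 40.3% and 27.8%. These shares were not tested, and a window without a match says only that the letters are not there.

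**Figure D5:**
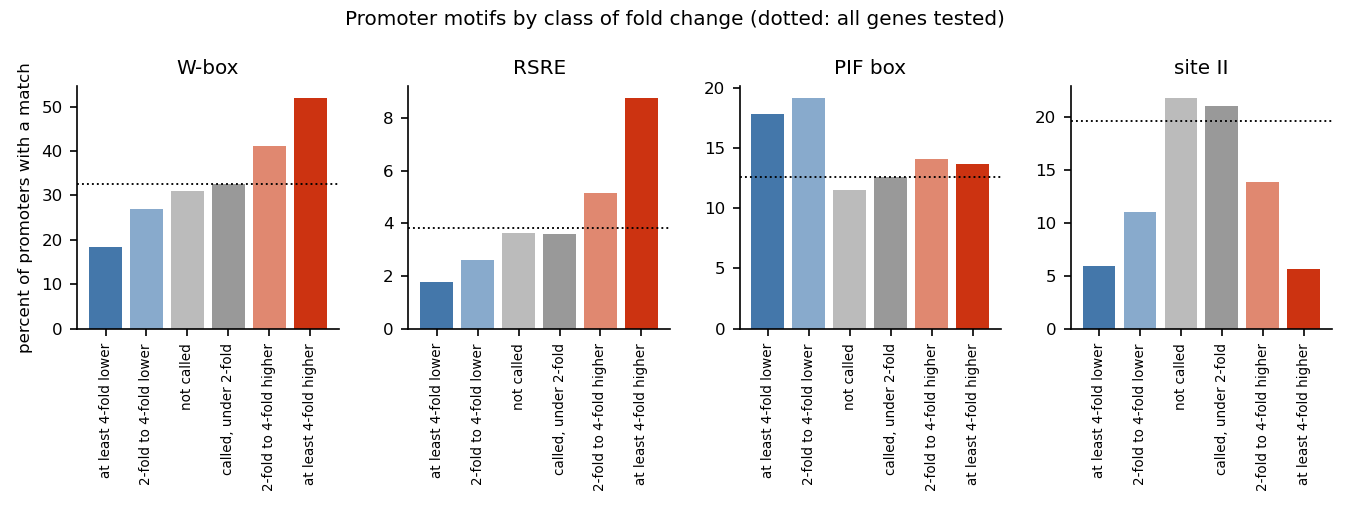
Percent of promoters with a match to 4 motifs in classes of fold change in ceh1 against Col-0, with a dotted line at the share over all genes tested. The W-box and RSRE bars are lowest in genes at least 4-fold lower and highest in genes at least 4-fold higher, and the site II bars are highest in genes not called.

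Calmodulin-like genes and cysteine-rich receptor kinases were mostly higher, and other calcium and receptor families were mixed. Over all genes tested 25.2% were higher and 25% lower. Of 17 calmodulin-like genes tested 15 rose (median 1.35), 10 of them at least 2-fold. Among these calcium sensors CML41, known from callose deposition at plasmodesmata, went from 64.3 ± 15.8 to 394 ± 62.9, TCH2 from 163 ± 13.1 to 609.8 ± 139 and CML38 from 12.1 ± 9.62 to 106 ± 47.5. Of 24 calcium-dependent and related kinases 11 rose and 2, CPK2 and CPK13, fell. CPK29 read 113, 123 and 118 in Col-0 and 359, 329.9 and 363 in ceh1, and CPK6, which acts in stomatal closure, went from 201 ± 39.4 to 423 ± 49.6. Of 15 cyclic nucleotide-gated channels 7 were higher and 3 lower. With equal library totals these counts were 8 and 1, and without the length trend 9 and 2. CNGC19, a channel of herbivore defence, rose from 14.9 ± 6.86 to 105 ± 16.2 and CNGC3 from 344 ± 40.1 to 1125 ± 46, while CNGC2, whose loss is known to cause autoimmunity, read 1452, 1481 and 1159 in Col-0 and 532, 437 and 607 in ceh1, a fall by 1.38 ± 0.14 (adjusted p = 8.66e-07). Of 36 cysteine-rich receptor kinases 27 rose and 4 fell, or 30 rose and 2 fell without the length trend (median 1.41). CRK36 went from 57.9 ± 9.99 to 516 ± 23.9 and CRK45 from 169 ± 53.3 to 1262 ± 98.8. The CIPK and CBL calcium sensor families had 9 of 28 higher and 9 lower (32.1% in each direction). The glutamate receptor-like channels had 6 of 15 higher and 7 lower (6 and 5 with equal library totals, 7 and 5 without the length trend). The lectin receptor kinases had 9 of 27 higher (33.3%) and 7 lower (25.9%), the lower share being near that of all genes. Many cysteine-rich kinases lie in tandem copies, so single values may share reads. The lower calcium-dependent kinases numbered 1 in place of 2 without Col-0 replicate 2 or 3, without ceh1 replicate 1 or 2 and without the length trend, and neither was called with equal library totals.

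Detoxification and specialized metabolism were mixed within families, beside 25.2% of all genes tested called higher and 25% called lower. Of 38 glutathione transferases 19 rose, 17 of them at least 2-fold, and 7 fell (median 0.51). GSTF6, known to act in camalexin synthesis, read 228, 319 and 258 in Col-0 and 3415, 3510.4 and 3207 in ceh1, a rise of 3.66 ± 0.15 (adjusted p = 4.43e-11). GSTU4 and GSTU8 went from 12.2 ± 2.0 to 248 ± 14.5 and from 7.79 ± 2.25 to 120.0 ± 10.8. Of 130 cytochrome P450 genes 41 rose (31.5%) and 42 fell (32.3%). With equal library totals 52 rose and 27 fell, and without the length trend 46 and 37. CYP71A12, of indole defence compounds, and CYP81D8 rose from 11.2 ± 2.53 to 133 ± 19.5 and from 39.3 ± 13.4 to 279.9 ± 40.2. Of 43 UDP-glycosyltransferases 15 rose (34.9%) and 12 fell (27.9%, near the share of all genes). UGT87A2 went from 80.1 ± 12.5 to 389.9 ± 39.7 and UGT73C5, which glycosylates brassinosteroids and toxins, from 59.9 ± 15.9 to 263 ± 3.47. Among the ABCC and MATE transporters 8 of 18 rose and 7 fell, or 13 and 2 without the length trend. The lower ones numbered 4 without Col-0 replicate 1 or ceh1 replicate 1 or 2, and 3 with equal library totals. ABCC3, a vacuolar transporter, rose from 523 ± 81.1 to 1840.2 ± 287 and ABCC14 fell from 1565 ± 325 to 527 ± 38.

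Proteasome, autophagy and endoplasmic reticulum-associated degradation genes had more members higher than lower. Among all genes tested 25.2% were higher and 25% lower. Of 38 proteasome genes tested 27 rose and 1, RPN1A, fell, with a median of 0.46 (0.31 without the length trend). PAA2, an alpha ring subunit, read 787, 951 and 958 in Col-0 and 1539, 1645 and 1431 in ceh1, and PAE1 went from 572 ± 80.1 to 1002 ± 105. Of 30 autophagy genes 16 rose and 3 fell (median 0.43), or 15 and 1 without the length trend. ATG8D and ATG8H, which coat the forming autophagosome, went from 62.2 ± 12.5 to 177 ± 21.4 and from 64.6 ± 24.9 to 154 ± 8.12. Of 17 genes of endoplasmic reticulum-associated degradation 9 rose and 1, the ubiquitin ligase HRD1A, fell, while its paralogue HRD1B rose from 438 ± 39.9 to 1558 ± 95.5. OS9, a lectin that picks misfolded glycoproteins, went from 221 ± 20.1 to 646 ± 41.7.

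Among vesicle transport genes, 2 coat genes rose most. SEC31A (chromosome 1, 6489233 to 6494634), a coat protein of vesicles leaving the endoplasmic reticulum, read 42.8, 53.5 and 51.5 in Col-0 and 978, 965 and 1176 in ceh1, a rise of 4.37 ± 0.20 (SE, log2, adjusted p = 8.9e-11). SARA1A, the GTPase that starts the same coat, read 44, 46.4 and 34.8 in Col-0 and 369, 390.2 and 342 in ceh1. Both genes had every ceh1 library far above Col-0. SYP122, a syntaxin of the plasma membrane, went from 152 ± 36.6 to 698 ± 136. In all, 18 of 34 vesicle and exocyst genes rose and 3 fell (median 0.42), the lower ones being 1 without Col-0 replicate 2, ceh1 replicate 1 or with equal library totals. In N-glycosylation and signal peptide processing 3 of 17 rose (17.6%) and 2 fell (11.8%), beside 25.2% and 25% of all genes tested. However, 11 rose without the length trend and 10 with equal library totals. SPP, a signal peptide peptidase, rose from 530.1 ± 46.9 to 1295 ± 52.3, and the lower ones, the trimming enzymes GMII and PSL5, were not called without the length trend, with equal library totals, without Col-0 replicate 1 or without ceh1 replicate 2. RPN1A of the proteasome was called only without ceh1 replicate 3 when 1 library was left out, and not without the length trend or with equal library totals. The lower genes of endoplasmic reticulum-associated degradation were 2 without ceh1 replicate 3, and HRD1A was not called with equal library totals.

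Lists of short or long transcripts had counts that turned on the length trend. In the main fit 25.2% of all genes tested were higher and 25% lower. Of 34 cytosolic ribosomal protein genes, with a median transcript of 983 bases, 7 rose (median 0.24), 25 with equal library totals, but without the length trend 1 rose and 5 fell (median -0.03). Leaving out 1 library gave 3 to 12 higher, with 3 or 4 when replicate 1 or 2 of either genotype was left out and 12 without ceh1 replicate 3. RPL10C, of the large subunit, went from 1542 ± 104 to 2380.3 ± 112. Of 22 histone genes 8 rose and 2 fell, 15 rose with equal library totals, and 3 rose and 1 fell without the length trend. HTA13 went from 154 ± 8.15 to 324 ± 60.3. Higher histones numbered 5 when replicate 2 or 3 of Col-0 or replicate 1 or 2 of ceh1 was left out. A single histone was lower when replicate 1 or 2 of Col-0 or replicate 1 or 3 of ceh1 was left out. Of 21 RNA silencing genes, with a median transcript of 3615 bases, 10 fell and 1 rose, but 3 fell without the length trend, 4 with equal library totals and 6 without Col-0 replicate 1, and the higher one was not called without Col-0 replicate 3. AGO7, an argonaute of trans-acting siRNAs, fell from 124 ± 34.6 to 44.2 ± 2.78, while DCL1, the dicer of miRNAs, fell by 0.66 ± 0.14 and stood at 0.11 (adjusted p = 0.406) without the length trend.

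Respiration, nitrogen and sugar genes had members in both directions, as did all genes tested, with 25.2% higher and 25% lower. Of 19 mitochondrial stress genes tested 11 rose and 2 fell (median 0.76), the lower being 1 without the length trend, with equal library totals and without Col-0 replicate 1 or ceh1 replicate 1 or 2. AATP1, an outer mitochondrial AAA ATPase, read 2.38, 1.78 and 5.15 in Col-0 and 78.4, 73.5 and 69.8 in ceh1. DIC2, a dicarboxylate carrier, read 28.5, 21.4 and 39.9 in Col-0 and 210.3, 166 and 536 in ceh1, so the ceh1 libraries varied widely but stayed above Col-0. Of 30 nitrate and ammonium genes 12 rose and 11 fell. GLN1;1, a cytosolic glutamine synthetase, rose from 969.9 ± 184 to 3879 ± 547, WR3, a nitrate transport accessory protein, from 53.2 ± 11.5 to 377 ± 73.5 and the nitrate transporter gene NRT1.8 from 3.67 ± 0.171 to 91.8 ± 43.1. GLU1, the leaf ferredoxin glutamate synthase, fell from 10303 ± 2097 to 2815 ± 337, by 1.86 on the log2 scale or 1.19 without the length trend. Of 36 genes of sugar transport and sucrose cleavage 13 rose and 14 fell, or 13 and 12 with equal library totals. The cell wall invertase ATBFRUCT1 and the sucrose exporter SWEET12 went from 123 ± 22 to 648 ± 64.6 and from 73.7 ± 5.14 to 421 ± 57.8.

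In amino acid synthesis, 9 of 24 shikimate, tryptophan and phenylalanine genes rose and 2 fell, beside 25.2% and 25% of all genes tested. TSA1 and ASB1, which serve tryptophan synthesis, read 438, 393 and 407 and 146, 141 and 136 in Col-0 and 1099.5, 1186 and 1114 and 445, 452 and 483 in ceh1. ADT4, an arogenate dehydratase of phenylalanine synthesis, went from 253 ± 43.4 to 623 ± 94.2. Sulfate assimilation and glutathione genes went the other way, with 16 of 29 lower and 5 higher (median -0.56). APR2, the main adenosine phosphosulfate reductase of leaves, read 1452, 1451 and 1432 in Col-0 and 553, 499.5 and 636 in ceh1, a fall by 1.37 ± 0.12 (adjusted p = 9.16e-08). OASB, a cysteine synthase of the plastid, went from 1957 ± 44.1 to 854 ± 76.7, and the sulfate transporter gene SULTR4;2 from 115 ± 8.03 to 41.7 ± 7.56. Higher sulfur genes numbered 2 or 3 when replicate 1 or 2 of either genotype was left out. The lower shikimate genes were 1 without Col-0 replicate 1 or 3, without ceh1 replicate 2 or 3 and with equal library totals.

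Most members of the Calvin cycle, photorespiration, fatty acid and starch lists fell. Among all genes tested 25% were lower and 25.2% higher. In the Calvin cycle 18 of 21 fell and 1, CP12-3, rose (median -1.14), and 13 fell at least 2-fold. GAPA-2, a glyceraldehyde phosphate dehydrogenase subunit, went from 18247 ± 1303 to 6716 ± 208 and RBCS2B from 19518 ± 1965 to 6807 ± 612. In photorespiration 13 of 15 fell and 1, MTLPD2, rose (median -0.91). SHM1, the mitochondrial serine hydroxymethyltransferase, read 22644, 23927 and 23486 in Col-0 and 8314, 9346 and 9433 in ceh1, and GLDP1, a glycine decarboxylase subunit, went from 7786 ± 2048 to 2327 ± 215. In fatty acid synthesis and desaturation 21 of 26 fell (median -0.68). ADS1, a desaturase, went from 336 ± 48.4 to 63.7 ± 1.64, and the acetyl-CoA carboxylase gene CAC3 from 2611 ± 307 to 1234 ± 122. In starch metabolism 27 of 37 fell, or 16 with equal library totals, and 1 rose, or 4 without the length trend. The debranching gene ISA2 went from 734 ± 90.6 to 261 ± 10.3, while the one that rose, the secreted alpha-amylase AMY1, read 22.6, 32.1 and 34.8 in Col-0 and 230.1, 195 and 183 in ceh1. CP12-3 was not called without Col-0 replicate 2, ceh1 replicate 1 or 2 or the length trend.

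Genes that build and maintain plastids fell more often than they rose, beside 25% lower and 25.2% higher among all genes tested. Of 30 plastid chaperones and proteases 22 fell and 1, CLPP3, rose (median -0.47), but CLPP3 was not called once any 1 of the 6 libraries was left out. VAR2 and FTSH5, subunits of the thylakoid protease that repairs photosystem II, went from 10206 ± 572 to 5201 ± 339.9 and from 3606 ± 562 to 1642 ± 43.1. CLPB3, a plastid disaggregase, went from 1103 ± 80.0 to 467 ± 45.3. Of 25 genes of plastid protein import 14 fell and 2 rose. TIC62 read 2704, 2832 and 2593 in Col-0 and 972, 910.2 and 1019.8 in ceh1, whereas TIC20-IV read 15.5, 12.5 and 11.6 in Col-0 and 84.1, 84.1 and 101 in ceh1, a rise of 2.68 ± 0.23 (adjusted p = 1.05e-07). TIC20-IV is a minor form of an import channel. Of 22 genes of the NDH complex, cyclic electron flow and the plastid terminal oxidase 15 fell, or 8 with equal library totals (median -0.54). PGRL1A, of cyclic flow, went from 7122 ± 522 to 3493 ± 166. Of 12 plastid ribosomal proteins 4 fell (median -0.37), but 11 fell without the length trend, 1 with equal library totals and 2 without ceh1 replicate 1. PRPS17 went from 962 ± 5.07 to 609 ± 62.5. Of 14 stromal redox genes 8 fell and 1 rose, or 11 and 2 without the length trend. TAPX, the thylakoid ascorbate peroxidase, went from 1163 ± 57.7 to 442 ± 77.6. The higher import genes were 1 without Col-0 replicate 2 or ceh1 replicate 1.

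Some GUN genes and GLK factors were among the losses. In the list of GUN genes, which act in plastid to nucleus signalling, and GLK factors, which activate photosynthesis genes, 4 of 7 fell. The share over all genes tested was 25%. GLK1 read 1708, 2264 and 1986 in Col-0 and 1376, 922 and 1168 in ceh1, and GLK2 read 1181, 1493 and 1253 in Col-0 and 717, 551 and 595 in ceh1. Both had every ceh1 library below every Col-0 library, with falls by 0.79 ± 0.17 (adjusted p = 0.00119) and 1.08 ± 0.14 (adjusted p = 1.03e-05). GUN5, the magnesium chelatase subunit CHLH, fell by 2.03 ± 0.16, or by 1.44 without the length trend, and GUN4, its activator, fell by 1.14 ± 0.15.

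Aquaporins, arabinogalactan proteins, tubulins and wax genes had more members lower than higher. Xyloglucan endotransglucosylases, which remodel cell walls, had 12 of 24 higher and 9 lower. For all genes tested the shares were 25.2% higher and 25% lower. Cyclins, which drive the cell cycle, had 10 of 27 higher and 2 lower, with 6 higher without Col-0 replicate 2 and 5 without ceh1 replicate 2. Of 26 aquaporins 17 fell and 2 rose (median -0.52). DELTA-TIP, a tonoplast water channel, read 5266, 4928 and 4579 in Col-0 and 1166, 1169 and 1176 in ceh1, and PIP2A, a plasma membrane channel, 10817, 10159.5 and 10292 in Col-0 and 3915, 3868 and 3887 in ceh1. Of 33 arabinogalactan proteins 20 fell, 13 of them at least 2-fold, and 5 rose (median -0.87). FLA2 read 787, 505 and 449 in Col-0 and 136, 133 and 119 in ceh1, while AGP2 rose from 16.1 ± 4.76 to 99.5 ± 4.42. Of 15 tubulins 10 fell, TUB1 from 285 ± 70.4 to 81.8 ± 7.55 and TUB6 from 2994 ± 436 to 1107 ± 42. Of 35 genes of wax, cutin and suberin 18 fell, 11 with equal library totals, and 1 rose, 3 without the length trend and 2 without Col-0 replicate 2. CER1 of alkane synthesis went from 1589 ± 139.6 to 624 ± 51.7 and CYP96A15, the alkane hydroxylase MAH1, from 89.6 ± 30.1 to 14.3 ± 6.34. A single aquaporin was higher when replicate 2 or 3 of Col-0 or replicate 1 or 2 of ceh1 was left out.

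The cytokinin, auxin transport, brassinosteroid and phytochrome lists had more members lower than higher, beside 25% lower and 25.2% higher among all genes tested. Of 37 cytokinin genes 15 fell and 4 rose (median -0.32), or 7 rose with equal library totals. The response regulator ARR15, which cytokinin induces, read 55.9, 48.2 and 57.9 in Col-0 and 9.9, 9.94 and 11 in ceh1, and the receptor gene WOL went from 275 ± 54.4 to 96.8 ± 6.96. Of 22 auxin transporters 11 fell and 3 rose, or 5 rose with equal library totals. The efflux carriers PIN7 and ABCB19 fell from 1184 ± 42.6 to 391 ± 16.8 and from 1858 ± 421 to 428 ± 77.5, while ABCB4 and PILS5 rose from 54.5 ± 7.75 to 273 ± 57.2 and from 16 ± 3.12 to 95.8 ± 19.6. Of 31 brassinosteroid genes 14 fell and 4 rose, or 8 rose with equal library totals. PRE6 and BEE1, small growth-promoting bHLH proteins, fell from 189 ± 17.9 to 48.7 ± 15.4 and from 126 ± 24.4 to 34.7 ± 11.3. TCH4, a xyloglucan transglucosylase that brassinosteroids and touch induce, rose from 231 ± 33.5 to 1135 ± 527. Of 29 genes of phytochromes, PIFs and shade 16 fell and 3 rose (median -0.60). PHYA read 1561, 1347 and 1214 in Col-0 and 416, 459 and 571 in ceh1, while HY5 and HYH, factors that promote light responses, rose from 25.7 ± 4.75 to 67.5 ± 5.16 and from 36.7 ± 8.65 to 117 ± 12.9.

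Whether these effects depend on ICS1 was tested as the difference between the ceh1 effect here and that of ceh1/eds16 against eds16. In the main fit, the only one used for this, the difference was called in 891 of 18289 genes (4.87%). It was also called in 10 of the 40 genes that led by count or by fold, which were chosen by values that enter it. Those 10 are given in the closing section.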

How the data were processed

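The authors deposited 1 table of normalized gene counts for 12 libraries of rosette RNA. Per the submitters' processing notes, TopHat2, DESeq2 and TAIR10 were used; the sources used here name no version, strand setting or counting tool. The deposited values have the unit of a signal, reads divided by a size factor per library: 100% of values came out as whole reads within 0.01 once that factor was undone, which gave the depths and the reads for edgeR and DESeq2. Columns of other samples numbered 0, and rows without a gene name 0.

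Genes with a mean of at least 10 were fitted with limma 3.58.1 (R 4.3.3) on log2(normalized count + 1) over all 12 libraries, with a variance trend and Benjamini-Hochberg adjustment over 18289 genes. The fit was tested on simulated data. Shares were compared by an exact permutation test. Alternatives were other pseudocounts, filters, scalings, edgeR 4.0.16 and DESeq2 1.42.0, a replicate block, each library left out, and the length trend removed (lowess, span 0.3), which was added after seeing the data. Depth limits genes with few reads, most in the Col-0 library of 4.99 M.

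Genes were named by these rules: the 10 largest gains and losses in normalized count and, at a mean of at least 100, in fold change, among called genes with a symbol and no overlap between genotypes; switched genes; and up to 4 called members of a list with a mean of at least 50. Exceptions within a family that the rules did not pick (such as WRKY19, CPK2 and HRD1A) were named after their values were seen. Members and lists were chosen with earlier results of these data known. Symbols and positions are RefSeq's TAIR10.1, matched by locus; of 1470 list entries 164 matched no symbol.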

Additional observations from a re-analysis of the deposited data

Results flagged for a closer look

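In 10 of the 40 leading genes the ceh1 effect differed between plants with ICS1 and plants without it, by limma's test of the difference between the 2 log2 fold changes (adjusted over 18289 genes). Each effect has 3 libraries a genotype. The test was run in the main fit only and was not repeated under the alternatives. The length measure was 0.28 to 0.67 in Col-0 and 0.03 to 0.10 in eds16, and its part in these differences was not tested. The 40 genes were chosen by their ceh1 and Col-0 values, which also enter the difference.

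PR1, a marker of salicylic acid signalling, rose by 4.61 ± 0.28 (SE, log2) with ICS1 and by 0.95 ± 0.28 without it, a difference of 3.66 (adjusted p = 6.2e-05). WRKY38 rose by 5.21 with ICS1 and by 0.79 without it, a difference of 4.41 (adjusted p = 7.07e-06). LHT7 rose by 4.89 with ICS1 and by 2.4 without it, a difference of 2.48 (adjusted p = 0.0184).

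Other rising genes had a larger log2 rise in the plants without ICS1. BGL2 rose by 3.32 with ICS1 and by 5.14 without it, a difference of -1.82 (adjusted p = 0.00025), since its level was 635 in Col-0 and 152 in eds16 but 6229 in ceh1 and 5397 in ceh1/eds16. GRP7 had a difference of -1.29 (adjusted p = 0.0383), BIP3 of -1.22 (adjusted p = 0.00426) and TCH3 of -0.88 (adjusted p = 0.0342). The level of BIP3 was 56.1 in Col-0 and 19.1 in eds16, but 2036 in ceh1 and 1656 in ceh1/eds16. TCH3 stood at 1573 in Col-0 and 961 in eds16, and at 8046 in ceh1 and 9054 in ceh1/eds16. The ceh1/eds16 libraries varied widely in GRP7, at 24322 ± 12880, beside 10738 ± 860 in ceh1.

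Among falling genes, CER4 had log2 effects of -3.21 with ICS1 and -4.83 without it, a difference of 1.63 (adjusted p = 0.0162). LHCB2.3 had effects of -2.72 and -3.78, a difference of 1.05 (adjusted p = 0.00523). LUP1 had effects of -2.88 with ICS1 and -1.65 without it, a difference of -1.23 (adjusted p = 0.0256).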

How the results depend on the processing

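With equal library totals 2678 genes in place of 4566 were lower, and 764 in place of 1289 at least 2-fold lower, by construction since that scaling shifts all genes upward in ceh1. A filter at 50 left 1175 genes at least 2-fold higher, fewer genes being tested. Leaving out 1 library gave 3720 to 4338 genes higher, 3661 to 4300 lower, 1761 to 1925 at least 2-fold higher and 1160 to 1419 at least 2-fold lower. On recovered reads edgeR called 4567 genes higher and 4742 lower, and DESeq2 4502 and 4619. HPL1, not called, changed sign with equal library totals (0.13, adjusted p = 0.58) and without Col-0 replicate 1 (0.039, adjusted p = 0.883), within a range of -0.25 to 0.039 when 1 library was left out. DCL1 changed sign without the length trend (0.11, adjusted p = 0.406); its transcript is long. Of 209 genes the rules name, 196 were tested under all 18 alternatives and 184 of these kept their call throughout; the other 13 fell below the filter at 50 and kept theirs elsewhere. Of 22 motif shares, 8 moved beyond their binomial interval with no fold minimum. The replicate numbers share only a number: the deviations of same-numbered libraries correlated at -0.07, -0.04 and -0.13, and with the replicate block 4369 genes were higher, 4304 lower, 1812 at least 2-fold higher and 1287 at least 2-fold lower.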

Other observations

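Several genes of flower organ identity were read in rosettes of both genotypes and had lower means in ceh1. SEP3, a MADS-box factor of flowers, had a mean of 52 normalized counts in Col-0 and 14.7 in ceh1, and AP1, which marks the floral meristem, had 27.9 and 7.58. PI, a petal and stamen identity gene, had 35.1 and 15.9. Not every gene of this kind was lower: SHP1 had 4.39 and 4.42, and SHP2 had 0.43 and 0.94. Among seed genes EM6, an embryogenesis-abundant protein gene, was at 0 in Col-0 and 9.74 in ceh1, where FUS3, a regulator of seed maturation, had 16.2 and 3.17. These low means rest on few reads in the Col-0 libraries and were not tested further.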
